A study of Mus musculus with 25 samples.

Results

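RNA bound to GFP-tagged ribosomes (IP) was compared with RNA of the whole lysate (INPUT) of the same kind of mouse hypothalamus pools. The comparison used 16 of the 25 libraries of the series, 8 IP and 8 INPUT, and no library of the cultured cEND cells. All 16 came from Slco1c1CreERT2 tg/wt::ROSA26 lSlL10aGFP tg/wt mice, in which tamoxifen activates a Cre recombinase driven by the Slco1c1 promoter and Cre then switches on ribosomal protein L10a fused to GFP. Mice were 12 weeks old and were studied 3 weeks after tamoxifen. The 2 groups were fed high-fat (HFD) or control (CD) chow over 3 days. Every group comprised 4 pools, each from 2 male and 2 female mice, and each replicate number had 1 INPUT and 1 IP library. The labels give endothelial cell as the cell type of both fractions, and the design text describes the Cre driver as specific to vascular endothelium of the blood-brain barrier.

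In translating ribosome affinity purification, cells that recombine the tag contribute ribosomes to the pull-down, so that their transcripts are concentrated against the lysate. Slco1c1 encodes OATP1C1, a thyroxine carrier of brain endothelium that mouse astrocytes also make. Endothelial cells line the vessels and hold the barrier with tight junction proteins such as Cldn5. Astrocytes contact those vessels with their endfeet, clear glutamate, potassium and water, and supply glutamine and lipids to neurons.

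The window before the start of the gene whose promoter drives the Cre is shown with those of Cldn5 of the endothelial markers and of Kcnj10, a potassium channel gene of astrocytes, both described with the results (250 bases upstream of the RefSeq start, build GRCm38.p6, plus strand, 5′ to 3′; capitals mark the only match to the short words searched for, which are listed with the promoter counts).
Slco1c1, chr6:141524104-141524353: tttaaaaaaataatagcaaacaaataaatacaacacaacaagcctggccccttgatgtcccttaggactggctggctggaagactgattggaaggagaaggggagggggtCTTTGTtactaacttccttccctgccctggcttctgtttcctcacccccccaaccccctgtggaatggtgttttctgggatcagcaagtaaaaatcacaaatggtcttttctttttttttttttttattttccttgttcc
Cldn5, chr16:18776597-18776846: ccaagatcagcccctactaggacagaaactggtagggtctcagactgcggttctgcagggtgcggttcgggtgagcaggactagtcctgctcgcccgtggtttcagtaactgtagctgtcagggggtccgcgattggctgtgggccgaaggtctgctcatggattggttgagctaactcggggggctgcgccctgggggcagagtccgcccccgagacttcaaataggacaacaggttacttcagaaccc
Kcnj10, chr1:172340960-172341209: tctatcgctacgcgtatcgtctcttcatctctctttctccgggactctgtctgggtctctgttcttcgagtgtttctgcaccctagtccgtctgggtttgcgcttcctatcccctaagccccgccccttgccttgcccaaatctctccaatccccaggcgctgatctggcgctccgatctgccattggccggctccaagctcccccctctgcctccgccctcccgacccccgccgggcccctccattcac
The windows differed in base composition. GC content was 42.8% before Slco1c1, with 0 CpG dinucleotides. It was 59.6% before Cldn5, with 12 CpG, and 62.0% before Kcnj10, with 17 CpG. The capitals in the Slco1c1 window are CTTTGT, the reverse complement of the SOX word ACAAAG.

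Total counts ran from 29.0 to 42.8 M counts (M, 1000000) in INPUT and from 27.9 to 41.2 M in IP. Mitochondrially encoded transcripts took 28.1 to 36.2% of the counts in INPUT and 0.0533 to 0.0786% in IP, and nuclear ribosomal RNA took 3.20 to 4.84% and 7.76 to 10.4%. These rows and other structural RNAs were left out before scaling, which left 17.7 to 26.5 M counts in INPUT and 25.0 to 37.4 M in IP. Levels are counts per 1000000 (CPM) after TMM scaling, and fold changes are log2 of IP over INPUT ± SE from edgeR's quasi-likelihood test with the pool as a block. A gene is called here when its Benjamini-Hochberg adjusted p was at most 0.05 and it differed at least 2-fold. Replicates are pools of mice, so p-values measure the spread between pools and not between single animals.

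The genes that define astrocytes and those that define endothelium were both higher in IP, and the astrocyte genes made up far more of the counts. Slco1c1 itself ranged from 98.3 to 145 CPM in the 8 IP libraries (median 120.2) and from 9.76 to 18.1 CPM in the 8 INPUT libraries (median 14.5). All 8 IP libraries lay above all 8 INPUT libraries, a difference of log2 3.09 ± 0.06 (adjusted p = 3.3e-24). Cldn5, the main claudin of brain vessels, ranged from 2.97 to 5.99 CPM in the 8 IP libraries (median 4.45) and from 0.317 to 1.62 CPM in the 8 INPUT libraries (median 1.09). Its fractions did not overlap either, with log2 2.12 ± 0.25 (adjusted p = 1.7e-06), at a much lower level. Sox9, a transcription factor of astrocytes, ranged from 564 to 670.3 CPM in the 8 IP libraries (median 607) and from 63.6 to 81.5 CPM in the 8 INPUT libraries (median 75.7), without overlap (log2 3.04 ± 0.04, adjusted p = 2.9e-26). Slc1a2 encodes GLT-1, the astrocytes' main glutamate carrier. It ranged from 15719.9 to 21659.9 CPM in the 8 IP libraries (median 18466) and from 2254 to 3109 CPM in the 8 INPUT libraries (median 2660.4), again without overlap (log2 2.81 ± 0.04, adjusted p = 3.1e-26). Of the marker lists, 10 of 10 astrocyte genes (median log2 2.86) and 17 of 18 endothelial genes (median 2.17) were called higher. Over all genes tested 16.5% were called higher and 20.6% lower. Summed, the astrocyte markers came to 29993 to 37343 CPM in IP and 4488 to 5592 CPM in INPUT, against 280.4 to 405 and 49.8 to 67.2 CPM for the endothelial markers. The endothelial list includes Slco1c1, which mouse astrocytes also make and which held 98.3 to 145 CPM of the endothelial sum in IP. The label names endothelial cells alone and does not cover the astrocyte genes, so the fraction is called IP throughout.

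Markers of microglia, oligodendrocytes, their precursors and neurons were mostly lower in IP, and none of these genes was at 0 in an IP library. Called lower were 10 of 10 microglial genes (median log2 -3.87), 9 of 10 oligodendrocyte genes (-3.78), 5 of 5 precursor genes (-2.27) and 11 of 12 neuronal genes (-1.36). The remaining oligodendrocyte gene, Cnp, was higher in IP, short of 2-fold (log2 0.36, adjusted p = 6.1e-08). It ranged from 471 to 641 CPM in IP and from 401 to 453 CPM in INPUT. Neuronal transcripts were the most retained of these 4 lists by median. Snap25, a synaptic vesicle fusion protein, still ranged from 3052 to 4697 CPM in IP against 7708 to 10561 CPM in INPUT (-1.25). The remaining lists were split or lower, and Cga, Col3a1, Kcnj8 and Lum of these were at 0 in at least 1 IP library. Choroid plexus genes had 4 of 7 higher, led by Ttr (transthyretin, 18.3 to 108 CPM in IP (median 51.05) and 1.64 to 5.21 CPM in INPUT (median 2.18)). Tanycyte and ependymal genes had 3 of 8 higher and 1 lower, pericyte and smooth muscle genes 3 and 3 of 9, and fibroblast genes 1 and 4 of 6. Some of these shares are near those over all genes tested (16.5% higher, 20.6% lower). They include the tanycyte and ependymal genes lower (12.5%) and the fibroblast genes higher (16.7%). Pdgfra is in both the fibroblast and the precursor list and is counted as lower in each. Erythroid (5 of 5) and anterior pituitary genes (5 of 5) were lower, the pituitary sum running from 26.2 to 1386 CPM in INPUT and from 3.07 to 94.9 CPM in IP. In such bulk fractions fewer cells of a type and less RNA per cell cannot be told apart, nor can the amount of a transcript and its share on ribosomes.

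**Figure D1:**
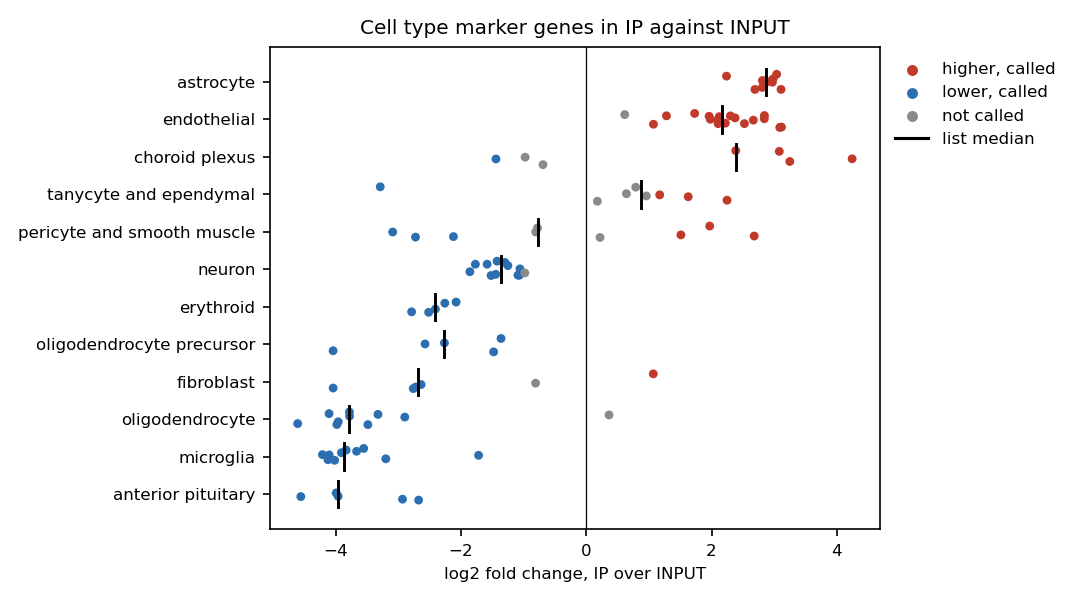
Each point is 1 marker gene, its place on the x axis is the log2 fold change of IP over INPUT over 8 pools, and rows are the 12 cell type lists with their medians as black bars. All 10 astrocyte genes and 17 of 18 endothelial genes lie at or beyond log2 1, while the microglial and pituitary medians lie near -4.

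Across the transcriptome the 2 fractions differed widely. Of 16542 genes tested, 6983 (42.2%) were higher in IP and 7116 (43.0%) lower at adjusted p alone. With the 2-fold threshold 2733 (16.5%) were called higher and 3406 (20.6%) lower. These shares are the background for the marker counts above and for every count below. The 8 IP libraries lay wholly above the 8 INPUT libraries for 5106 genes (30.9%) and wholly below for 5109 (30.9%). Genes named from the lists below were mostly chosen for a lack of overlap, so its mention describes them and is no result. The median over all genes was log2 -0.02. Scaled by total counts alone, without TMM factors, the median was -0.30 and the calls were 2064 higher and 4408 lower, so that 31.9% of calls were upwards in place of 44.5%. Differences of at least 8-fold were found for 125 genes upwards and 518 downwards. Among protein-coding genes with an average log2 CPM of at least 1 these counts were 87 and 181. All 6 classes of function lists lay above the background downwards, and all but channels lay above it upwards. The lists were chosen with earlier results of these data known. Transcription factors had the largest share higher, with 97 of 273 higher (35.5%) and 68 lower (24.9%). That class counts the Hippo and Hedgehog list, which also holds signalling proteins such as Smo. Secreted factors had 114 of 371 higher (30.7%) and 138 lower (37.2%), and enzymes had 115 of 440 (26.1%) and 140 (31.8%). Carriers had 58 of 262 (22.1%) and 71 (27.1%). Receptors had 61 of 273 higher (22.3%) and 130 lower (47.6%). Channels were the class with the largest share of members lower, 112 of 203 (55.2%) against 29 higher (14.3%). The classes' medians were log2 0.38 for transcription factors, -0.09 for carriers, -0.23 for enzymes, -0.40 for secreted factors, -0.95 for receptors and -1.11 for channels.

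**Figure D2:**
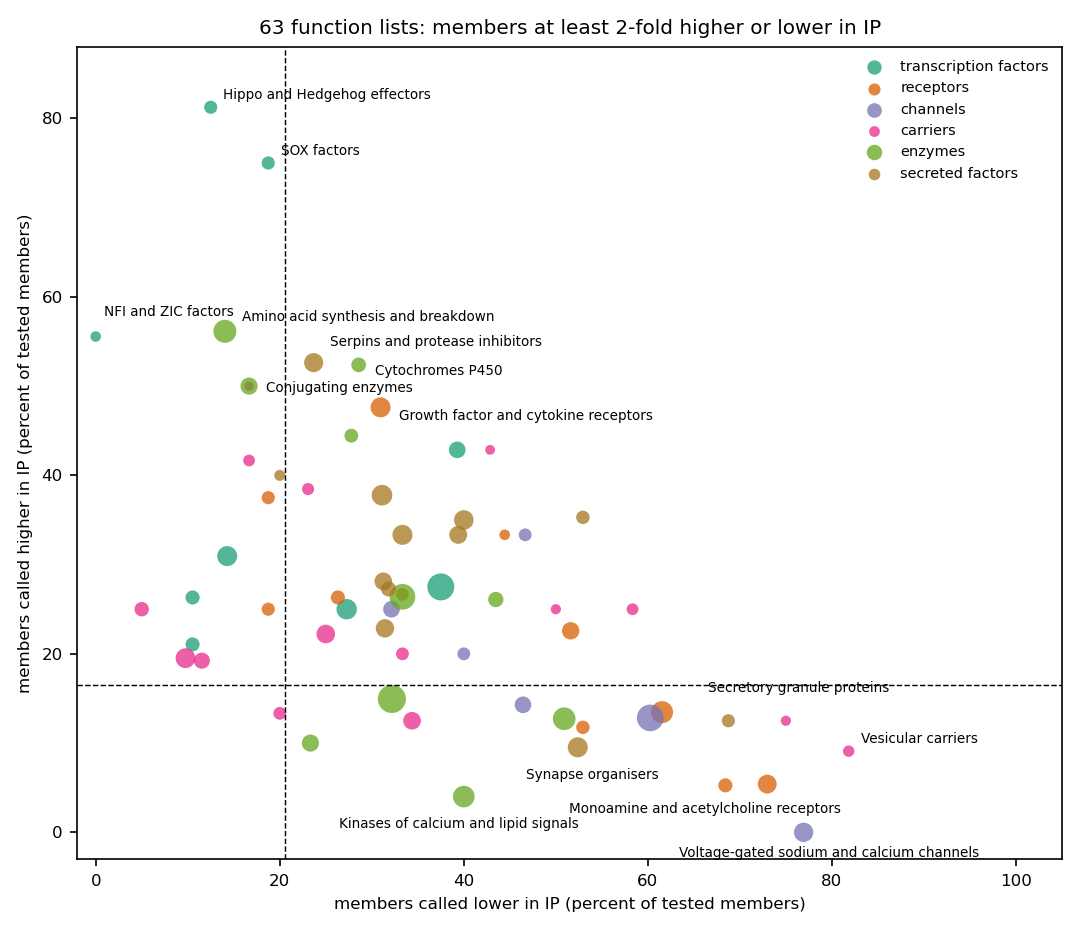
Each point is 1 of 63 function lists, coloured by class and sized by its number of tested members, with the percent of members called lower in IP on the x axis and called higher on the y axis. Dashed lines mark the shares over all genes (20.6% lower, 16.5% higher), and the Hippo and Hedgehog list (81.3% higher) and the sodium and calcium channel list (76.9% lower) lie at opposite corners.

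In the transcription factor class, the effectors of Hippo and Hedgehog signalling and the SOX family were mostly higher in IP. The Hippo and Hedgehog list also holds members that are no transcription factors, such as Smo, Cdon and Hhip. Hedgehog signals pass from the receptor Ptch1 through Smo to the Gli factors, and Hippo kinases hold back the coactivators Yap1 and Wwtr1 of the Tead factors. Of 16 tested genes of both pathways 13 were higher and 2 lower (median log2 2.36). Smo ranged from 156 to 219.9 CPM in IP (median 184) and 23.6 to 30.6 CPM in INPUT (median 27.2). Gli2 ranged from 53.9 to 61.6 CPM in IP (median 57.8) and 7.498 to 9.97 CPM in INPUT (median 8.86), and Yap1 from 84.9 to 99.5 CPM in IP (median 92.1) and 11.00 to 16.3 CPM in INPUT (median 14.4). None of these 3 genes overlapped between fractions, and their fold changes were log2 2.76 ± 0.05, log2 2.76 ± 0.06 and log2 2.72 ± 0.06. Gli1, a target of the pathway as well as its effector, was higher by log2 2.61 ± 0.07. The exceptions were Cdon (log2 -2.54 ± 0.11), a coreceptor for Hedgehog ligands, and Hhip (log2 -2.06 ± 0.13), which binds and sequesters them.

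SOX factors are grouped by their DNA-binding domain and divide the glial and vascular lineages between them. Here 12 of 16 were higher and 3 lower (median log2 1.90). Sox2, kept by neural progenitors and astrocytes, was at 119 to 149 CPM in IP (median 136) and 18.7 to 23.5 CPM in INPUT (median 22.04), without overlap (log2 2.62 ± 0.05). The endothelial factors Sox7, Sox17 and Sox18 were higher by log2 2.86 ± 0.12, log2 3.12 ± 0.23 and log2 3.23 ± 0.16 at levels under 30 CPM. Sox17 ranged from 2.48 to 4.95 CPM in IP. The oligodendrocyte factor Sox10 went the other way, at 3.68 to 5.83 CPM in IP (median 4.98) and 58.02 to 71.1 CPM in INPUT (median 66.6) (log2 -3.78 ± 0.08). Sox11 (-1.46) and Sox14 (-4.15), factors of young or particular neurons, were also lower. Fractions did not overlap for any of these genes.

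Nuclear factor I genes, which drive glial gene programmes, had all 4 members higher. Nfia ranged from 979 to 1161 CPM in IP (median 1039) and 243 to 269 CPM in INPUT (median 258) and Nfix from 749 to 886 CPM in IP (median 826) and 153 to 179 CPM in INPUT (median 169), with no overlap in either (log2 2.03 ± 0.04 and log2 2.29 ± 0.04), and Nfib was higher by log2 1.82 ± 0.04. Nuclear receptors were divided (11 higher and 12 lower of 44). Nr2e1 (Tlx), a factor of neural stem cells and astrocytes, was at 92.6 to 118 CPM in IP (median 114) and 11.2 to 16.5 CPM in INPUT (median 13.6) (log2 3.01 ± 0.05). The lipid sensors Ppara (log2 2.80 ± 0.11) and Nr1h3 (log2 2.54 ± 0.12) and the clock repressor Nr1d1 (log2 1.66 ± 0.04) were higher too. The progesterone receptor Pgr (log2 -1.71 ± 0.05), Nr4a2 of dopamine neurons (log2 -2.28 ± 0.07) and Nr6a1 (log2 -1.82 ± 0.13) were lower, as was Nr1i3 (log2 -3.09 ± 0.17).

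Homeobox and patterning factors leaned downwards (22 higher and 30 lower of 80). The lowest among those named were Lhx6 (log2 -3.18 ± 0.09), Lmx1b (log2 -2.79 ± 0.18), Six6 (log2 -2.48 ± 0.14) and Prox1 (log2 -2.40 ± 0.05), which pattern neurons. The highest among those named were Irx2 (log2 2.44 ± 0.10), Irx1 (log2 2.44 ± 0.09), Otx2 (log2 2.39 ± 0.07) and Six5 (log2 2.20 ± 0.13). The whole list ran from log2 -4.35 to 3.44. Otx2 is also a choroid plexus marker and is itself among the 4 of 7 markers of that tissue given above as higher. Among basic helix-loop-helix genes, the inhibitors Id1, Id2 and Id3 were higher (3.13, 2.55 and 2.80). The hypoxia factor Epas1 (HIF-2alpha), which endothelium and astrocytes express, ranged from 1261 to 1499 CPM in IP (median 1298) and 254 to 338 CPM in INPUT (median 279.9), without overlap (log2 2.24 ± 0.04). The neurogenic Nhlh2 (log2 -1.37 ± 0.11) and the zinc finger factors Myt1 (log2 -2.16 ± 0.09) and Myt1l (log2 -1.58 ± 0.04), which were put in the same list, were lower.

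Smaller families each held a few called members. Erg, the ETS factor that maintains endothelial identity, was at 19.5 to 25.4 CPM in IP (median 21.8) and 2.24 to 3.56 CPM in INPUT (median 3.18) (log2 2.84 ± 0.08). Etv5 (log2 1.80 ± 0.04) and Etv4 (log2 2.27 ± 0.16), ETS factors downstream of FGF receptors, were higher, and Spi1 (PU.1), the master factor of microglia, was lower (log2 -3.62 ± 0.16). The vascular forkhead genes Foxf2 (log2 2.81 ± 0.15) and Foxq1 (log2 2.87 ± 0.20), the flow-responsive Klf2 (log2 2.76 ± 0.22) and the glucocorticoid-induced Klf15 (log2 2.18 ± 0.06) were higher. Foxp2, a factor of projection neurons, was lower (log2 -3.20 ± 0.06). Stat3 (log2 1.46 ± 0.04), Stat5a (log2 1.58 ± 0.10) and Irf1 (log2 1.77 ± 0.06) were the leading cytokine factors upwards and Irf5 (log2 -1.87 ± 0.13) downwards.

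Receptors were lower in IP more often than genes at large, and a small set was much higher. Of 52 peptide receptors 7 were higher and 32 lower (median log2 -1.22). Gpr37l1, an orphan receptor of astrocytes, ranged from 454 to 625 CPM in IP (median 554) and 44.7 to 63.9 CPM in INPUT (median 54.3). Ntsr2, the low-affinity neurotensin receptor, ranged from 471 to 609 CPM in IP (median 525) and 46.9 to 67.2 CPM in INPUT (median 56.2). Ednrb, the endothelin B receptor, ranged from 357 to 418 CPM in IP (median 384) and 45.4 to 61.4 CPM in INPUT (median 52.6). In all 3 genes the lowest IP library lay several-fold above the highest INPUT library (log2 3.32 ± 0.05, log2 3.22 ± 0.04 and log2 2.88 ± 0.04). Ednra, the second endothelin receptor, was higher as well, at 10.7 to 14.4 CPM in IP (median 12.8) and 2.08 to 4.55 CPM in INPUT (median 2.71) (log2 2.12 ± 0.12), as was Adcyap1r1, the PACAP receptor (log2 1.70 ± 0.04). Receptors for hypothalamic peptides were lower, among them Vipr2 (log2 -2.99 ± 0.15), the neurokinin B receptor Tacr3 (log2 -2.33 ± 0.12), the vasopressin receptor Avpr1a (log2 -2.22 ± 0.15) and the dynorphin receptor Oprk1 (log2 -2.11 ± 0.07).

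Receptors for fast and monoamine transmitters were lower more often than higher. Of 37 monoamine and acetylcholine receptors 27 were lower, led by the nicotinic subunits Chrnb3 (log2 -3.47 ± 0.19) and Chrna6 (log2 -3.21 ± 0.25), the muscarinic Chrm1 (log2 -2.56 ± 0.13) and the serotonin receptor Htr4 (log2 -2.34 ± 0.16). The 2 that were higher were the histamine H1 receptor Hrh1 (13.8 to 22.5 CPM in IP (median 17.2) and 4.200 to 5.79 CPM in INPUT (median 5.55), log2 1.75 ± 0.09) and the noradrenaline receptor Adra2a (20.8 to 28.6 CPM in IP (median 24.5) and 6.64 to 10.6 CPM in INPUT (median 8.73), log2 1.48 ± 0.09), neither with overlap. GABA-A and glycine receptor subunits were lower in 13 of 19 cases and higher in 1, Gabrg1 (log2 1.30 ± 0.04, 131 to 154 CPM in IP (median 138) and 52.1 to 61.2 CPM in INPUT (median 57.02)). Ionotropic glutamate receptors were lower in 9 of 17, from Grin2b (log2 -2.31 ± 0.06) to Gria3 (log2 -1.82 ± 0.05) among those named. Grin2c, an NMDA subunit, was higher (log2 2.50 ± 0.08), as was the AMPA subunit Gria1 (log2 1.13 ± 0.04). Metabotropic receptors split within their family: Grm5 (log2 -1.40 ± 0.05) was lower, whereas Grm3 (log2 1.54 ± 0.05) and both GABA-B subunits, Gabbr1 (log2 1.42 ± 0.04) and Gabbr2 (log2 1.25 ± 0.05), were higher. Without TMM factors Gria1 and Gabbr2 were under 2-fold.

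Purine receptors held members far on either side. The microglial P2ry13 (log2 -4.47 ± 0.15), P2ry12 (log2 -3.20 ± 0.09) and P2ry6 (log2 -3.15 ± 0.19) were lower. P2ry12 is itself 1 of the microglial markers, of which 10 of 10 were lower. The adenosine receptors Adora1 and Adora2b were higher, Adora1 at 368 to 468 CPM in IP (median 393) and 102 to 122 CPM in INPUT (median 113) (log2 1.84 ± 0.04) and Adora2b by log2 2.76 ± 0.13. S1pr1, a sphingosine 1-phosphate receptor of endothelium and astrocytes, was among the 15 genes with the largest differences upwards. It ranged from 537 to 675 CPM in the 8 IP libraries (median 624) and from 46.9 to 67.2 CPM in the 8 INPUT libraries (median 52.7), with log2 3.52 ± 0.05 (adjusted p = 2.2e-26).

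Growth factor and cytokine receptors were the receptor list with the largest share higher (20 of 42, with 13 lower). The FGF receptors did not move together. Fgfr3 ranged from 174 to 263 CPM in IP (median 244) and 22.3 to 33.1 CPM in INPUT (median 26.6) and Fgfr1 from 94.2 to 116 CPM in IP (median 106) and 30.6 to 39.8 CPM in INPUT (median 34.4), both without overlap (log2 3.11 ± 0.05 and log2 1.60 ± 0.05). Fgfr2 libraries of the 2 fractions overlapped and no difference passed the test (49.6 to 64.8 CPM in IP (median 54.2) and 48.7 to 60.9 CPM in INPUT (median 55.7), log2 0.00 ± 0.05, adjusted p = 1). Its sign changed with the scaling and with single pools left out, as given with the alternatives. Ntrk2 (TrkB), whose truncated form astrocytes make, was at 3296 to 4378 CPM in IP (median 3632) and 568 to 753 CPM in INPUT (median 629) (log2 2.56 ± 0.04), whereas Ntrk3 differed by log2 0.20 ± 0.05 with overlapping libraries and by -0.078 without TMM factors. Receptors of precursor cells and microglia were lower, namely Pdgfra (log2 -4.04 ± 0.15), Erbb3 (log2 -3.67 ± 0.15), Ngfr (log2 -3.69 ± 0.16) and Csf1r (log2 -3.55 ± 0.08).

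Of 16 TGF-beta and BMP receptor genes 6 were higher, 3 lower and 7 neither (median log2 -0.13). Among those named, the BMP receptors Bmpr1b and Bmpr1a went the opposite way to the TGF-beta receptors Tgfbr1 and Tgfbr2. Not all of the 6 higher genes are named. Bmpr1b and Bmpr1a were higher (log2 2.31 ± 0.04 and log2 1.61 ± 0.04), as were the endothelial coreceptor Eng (log2 2.43 ± 0.09) and the BMP coreceptor Rgma (log2 2.20 ± 0.04). Tgfbr1 (log2 -2.18 ± 0.06), Tgfbr2 (log2 -1.43 ± 0.09) and the activin receptor Acvr2a (log2 -1.10 ± 0.05) were lower. Guidance receptors were lower in 16 of 31, led by the netrin receptors Unc5b (log2 -2.59 ± 0.07) and Unc5c (log2 -2.23 ± 0.05). The semaphorin receptor Plxnb1 (log2 2.68 ± 0.04) and the vascular Ephb4 (log2 2.49 ± 0.16) and Robo4 (log2 2.25 ± 0.17) were higher. Among adhesion receptors, the microglial Adgre1 (F4/80) was lower (log2 -4.19 ± 0.17) and Adgrg1 (log2 2.36 ± 0.05) and the endothelial Adgrl4 (log2 2.59 ± 0.11) were higher. Among lipoprotein receptors Lrp4 (log2 2.15 ± 0.06) and Lrp1 (log2 1.30 ± 0.08) were higher and the reelin receptor Vldlr lower (log2 -1.63 ± 0.04). Lrp8, the other reelin receptor, differed by 0.33 and did not reach 2-fold.

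Channel genes were mostly lower, with a few abundant exceptions. Voltage-gated sodium and calcium channel genes, which carry action potentials and trigger transmitter release, were lower in 30 of 39 cases and higher in 0 (median log2 -1.30). The calcium channel subunit Cacna2d1 ranged from 23.2 to 31.6 CPM in IP (median 26.4) and 100.4 to 138 CPM in INPUT (median 129), without overlap (log2 -2.21 ± 0.05). Scn9a (log2 -2.40 ± 0.07), Scn3a (log2 -1.99 ± 0.05) and Cacnb4 (log2 -1.89 ± 0.06) were the others of largest difference. The highest member of the list stood at log2 -0.04.

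Potassium channel genes were lower in 47 of 78 cases, yet some of the most abundant transcripts of IP belong to the 10 that were higher. Kcnj10 (Kir4.1), the inward rectifier with which astrocytes buffer potassium, ranged from 2797 to 3688 CPM in the 8 IP libraries (median 3168) and from 419.6 to 551 CPM in the 8 INPUT libraries (median 482), a difference of log2 2.74 ± 0.04 (adjusted p = 6.8e-26). Kcnj16 (Kir5.1), which assembles with it, ranged from 445 to 494 CPM in IP (median 464) and 53.6 to 69.7 CPM in INPUT (median 63.6) (log2 2.90 ± 0.05). Both rectifiers thus stood well apart in every library. Kcne1l was higher by log2 3.39 ± 0.06, the largest difference of the list. Also higher were Kcnip3 (log2 2.37 ± 0.04), Kcng4 (log2 2.02 ± 0.07), Kcnn2 (log2 1.59 ± 0.08), Kcnj14 (log2 1.49 ± 0.12) and the background potassium channel Kcnk1 (log2 1.48 ± 0.04). Its relatives Kcnk6 (log2 -3.26 ± 0.15) and Kcnk13 (log2 -2.77 ± 0.20) were lower, as were Kcnv1 (log2 -2.82 ± 0.14) and Kcnt2 (log2 -2.55 ± 0.11). Kcnk7 (log2 2.68 ± 0.37) and Kcne2 (log2 1.4995 ± 0.33) were called higher at levels under 1.5 CPM.

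Volume, gap junction and water channels held the other abundant members. Ttyh1, of the tweety family of volume-regulated chloride channels, ranged from 1790.1 to 2801 CPM in IP (median 2274) and 248 to 356 CPM in INPUT (median 290.0) (log2 2.94 ± 0.04). Aqp4, the water channel of astrocyte endfeet, ranged from 902 to 1197 CPM in IP (median 1062) and 193 to 263 CPM in INPUT (median 219.5) (log2 2.24 ± 0.04). The astrocyte connexins Gja1 and Gjb6 were higher by log2 2.86 ± 0.04 and log2 2.81 ± 0.05, against log2 -3.66 ± 0.15 for Gjb1 and log2 -1.44 ± 0.12 for the neuronal Gjd2. No library of one fraction reached the range of the other for these genes. Clic6 (log2 3.08 ± 0.06) and Clic4 (log2 2.10 ± 0.03) were higher and the anoctamins Ano5, Ano4 and Ano3 lower (-2.35, -1.94 and -1.88). Of the TRP and mechanical channels, Trpm3 (log2 2.33 ± 0.04) and the endothelial Piezo1 (log2 1.48 ± 0.15) were among 4 members higher of 28, against 13 lower, such as Trpm2 (log2 -1.69 ± 0.07) and Trpc4 (log2 -1.53 ± 0.11). Store calcium release separated by isoform, with the IP3 receptor Itpr2 higher (61.4 to 95.1 CPM in IP (median 70.1) and 25.99 to 29.7 CPM in INPUT (median 26.6), log2 1.39 ± 0.05) and Itpr1 (log2 -1.29 ± 0.04), Ryr2 (log2 -1.71 ± 0.11) and Ryr3 (log2 -2.41 ± 0.28) lower.

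**Figure D3:**
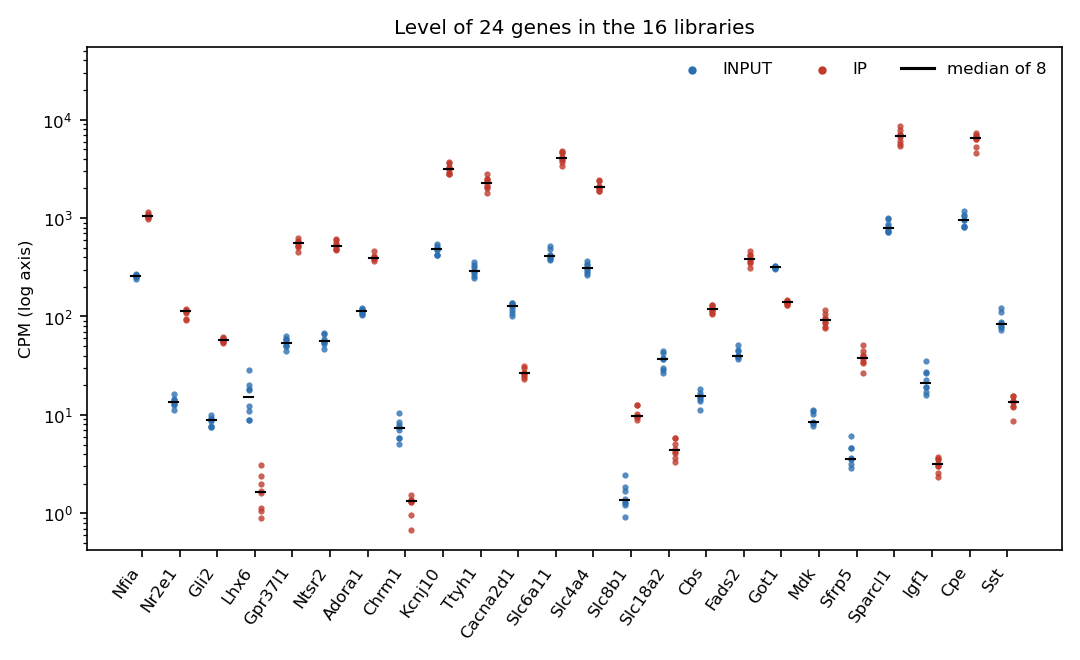
Points are the 16 libraries, 8 INPUT (left of each name) and 8 IP (right), with CPM on a log axis and black bars for the medians of 24 genes taken from the 6 classes. The 2 fractions overlap in none of the 24 genes, which is no result, because the rule for naming genes mostly asked for it. Slc6a11, Kcnj10, Ttyh1, Slc4a4, Sparcl1 and Cpe exceed 1000 CPM in each IP library.

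Carrier families held members on opposite sides. The GABA carrier Slc6a11 (GAT-3) and the glycine carrier Slc6a9 (GlyT1), which glia use to clear transmitter, were higher. Slc6a11 ranged from 3412 to 4784 CPM in the 8 IP libraries (median 4102) and from 373 to 522 CPM in the 8 INPUT libraries (median 411), with log2 3.29 ± 0.04 (adjusted p = 2.2e-26). Slc6a9 was higher by log2 2.55 ± 0.05, all 8 IP libraries lying above INPUT. The dopamine carrier Slc6a3 was lower (1.29 to 6.29 CPM in IP (median 2.17) and 26.4 to 74.3 CPM in INPUT (median 52.8), log2 -4.29 ± 0.11), as were the neuronal Slc6a15 (log2 -2.19 ± 0.06), Slc6a7 (log2 -1.53 ± 0.06) and Slc6a17 (log2 -1.48 ± 0.04). The neuronal glycine carrier Slc6a5 was below 4 CPM in every library and its fractions overlapped (log2 -1.12 ± 0.32, and -0.79 without HFD pool 2 or -0.99 without CD pool 3, both under 2-fold). Glutamate carriers repeated this division, Slc1a3 (GLAST) at 1279 to 1614 CPM in IP (median 1401) and 166 to 242 CPM in INPUT (median 191) (log2 2.86 ± 0.04) against the neuronal Slc1a1 at 12.8 to 17.2 CPM in IP (median 14.01) and 41.04 to 59.8 CPM in INPUT (median 51.7) (log2 -1.77 ± 0.05).

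The beta subunits of the sodium pump were split. Atp1b2 ranged from 2526 to 4022 CPM in IP (median 3054) and 413 to 579 CPM in INPUT (median 459), wholly above INPUT (log2 2.78 ± 0.05). Atp1b1 was lower (log2 -1.30 ± 0.04). Atp1b3 differed by log2 -0.35 ± 0.04 and did not reach 2-fold. Fxyd1 (phospholemman), a small regulator of the pump, was among the genes of largest difference at 143 to 247 CPM in IP (median 190.2) and 11.6 to 20.8 CPM in INPUT (median 17.01) (log2 3.51 ± 0.08).

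Bicarbonate and chloride carriers also divided by member. The sodium bicarbonate cotransporter Slc4a4 ranged from 1867 to 2458 CPM in IP (median 2052) and 264 to 369 CPM in INPUT (median 307) (log2 2.76 ± 0.04), against log2 -1.64 ± 0.05 for the neuronal Slc4a10 and log2 -0.68 ± 0.06 for Slc4a3. The potassium chloride cotransporter Slc12a4 was higher (log2 2.56 ± 0.07), while the neuronal Slc12a5 (KCC2, log2 -1.25 ± 0.04) and Slc12a2 (NKCC1, log2 -1.98 ± 0.05) were lower. Sodium calcium exchangers were lower in 6 of 8, among them Slc24a2 (log2 -2.33 ± 0.07), Slc8a1 (log2 -2.28 ± 0.08) and Slc8a3 (log2 -1.49 ± 0.05). The single member called higher was Slc8b1, the mitochondrial exchanger (8.94 to 12.7 CPM in IP (median 9.79) and 0.921 to 2.43 CPM in INPUT (median 1.35), log2 2.77 ± 0.12).

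Vesicular carriers, which fill synaptic vesicles, were lower in 9 of 11. They included the glutamate carriers Slc17a7 (log2 -3.23 ± 0.12) and Slc17a6 (log2 -1.52 ± 0.05), the monoamine carrier Slc18a2 (log2 -2.95 ± 0.07) and the vesicle protein Sv2c (log2 -1.75 ± 0.04). Slc18b1, a polyamine carrier found in astrocytes, went the other way (21.3 to 29.5 CPM in IP (median 25.1) and 5.703 to 8.204 CPM in INPUT (median 7.56), log2 1.78 ± 0.07). Mitochondrial carriers were higher in 8 and lower in 4 of 41. Slc25a18, a glutamate carrier of the inner membrane, ranged from 212 to 248 CPM in IP (median 219) and 21.2 to 26.1 CPM in INPUT (median 22.5) (log2 3.27 ± 0.04), and Slc25a34 was higher by log2 3.36 ± 0.06. The main ADP/ATP carrier Slc25a4 differed by log2 0.42 ± 0.05.

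Nutrient and metal carriers added further members on the higher side. Slc38a3 (SNAT3), which releases glutamine from astrocytes, was among the top genes at 99.6 to 180.1 CPM in IP (median 141) and 9.98 to 14.4 CPM in INPUT (median 12.3) (log2 3.49 ± 0.05). The fatty acid carrier Slc27a1 (log2 2.75 ± 0.05), the magnesium carrier Slc41a1 (log2 2.69 ± 0.04), the zinc carrier Slc39a12 (log2 3.14 ± 0.04), the citrate carrier Slc13a5 (log2 2.80 ± 0.07), the peptide carrier Slc15a2 (log2 2.55 ± 0.07) and the nucleotide sugar family member Slc35a4 (log2 1.84 ± 0.04) were higher. In the organic anion family, Slco1c1 and Slco1a4 (log2 1.98 ± 0.12), both of brain vessels, were higher and 4 of 8 lower, such as Slco3a1 (log2 -1.55 ± 0.05). ABC transporters were divided (8 higher and 9 lower of 36). The cholesterol exporter Abca1 (log2 1.84 ± 0.05) and the barrier efflux pump Abcb1a (log2 2.10 ± 0.16) were higher and Abcg1 (log2 -1.52 ± 0.07) and Abca8a (log2 -3.24 ± 0.15) lower.

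Enzymes of amino acid metabolism and of detoxification were the enzyme lists with the largest shares higher. Of 57 genes for amino acid synthesis and breakdown 32 were higher and 8 lower (median log2 1.15). Cystathionine is made by Cbs, which ranged from 106 to 130.2 CPM in IP (median 118) and 11.3 to 18.1 CPM in INPUT (median 15.4), and split by Cth, which ranged from 8.44 to 12.2 CPM in IP (median 10.1) and 1.18 to 2.05 CPM in INPUT (median 1.38). Neither overlapped between fractions (log2 2.98 ± 0.05 and log2 2.75 ± 0.10). Sarcosine dehydrogenase Sardh (log2 3.07 ± 0.08), the folate enzyme Aldh1l1 (log2 2.97 ± 0.05) and glutamate dehydrogenase Glud1 (log2 1.77 ± 0.04) were higher as well. The genes on the lower side include both aspartate aminotransferases, Got1 (130.1 to 148 CPM in IP (median 139) and 306 to 329 CPM in INPUT (median 319.9), log2 -1.20 ± 0.04) and Got2 (log2 -1.08 ± 0.04), as well as Bcat1 (log2 -1.25 ± 0.04), Asns (log2 -1.09 ± 0.05) and Arg2 (log2 -1.39 ± 0.14). They also include Mthfd1l and Mthfd2 (-1.09 and -1.08) of the folate cycle. Tested against the 2-fold threshold itself (glmTreat), 4 genes of the list were lower, and Asns, Mthfd1l and Mthfd2 were not among them.

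Glutamine synthetase Glul, with which astrocytes convert glutamate, ranged from 5165 to 7157 CPM in the 8 IP libraries (median 5967) and from 1028 to 1388 CPM in the 8 INPUT libraries (median 1109) (log2 2.38 ± 0.04, adjusted p = 3.2e-25). Its fractions did not overlap. Among transmitter enzymes, tyrosine hydroxylase Th (log2 -2.55 ± 0.07) and histidine decarboxylase Hdc (log2 -1.60 ± 0.08) were lower. GABA transaminase Abat (log2 1.63 ± 0.04), the endocannabinoid hydrolase Mgll (log2 2.04 ± 0.05) and both monoamine oxidases, Maob (log2 2.11 ± 0.05) and Maoa (log2 1.07 ± 0.04), were higher, Maoa not by glmTreat or without TMM factors. Aldolase C, Aldoc, was higher by log2 2.69 ± 0.04, against log2 0.18 ± 0.04 for Aldoa, which was at -0.091 without TMM factors.

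Cytochromes P450 were higher in 11 and lower in 6 of the 21 tested among 94 in the table. Cyp2d22 was at 87.7 to 153 CPM in IP (median 113) and 10.01 to 16.4 CPM in INPUT (median 12.05) (log2 3.18 ± 0.05), and the fatty acid oxygenases Cyp4f14 (log2 3.02 ± 0.07) and Cyp2j9 (log2 3.01 ± 0.04) and the oxysterol hydroxylase Cyp7b1 (log2 2.54 ± 0.07) followed. Conjugating enzymes were higher in 15 of 30, led by Mgst1 (log2 3.15 ± 0.07), Gstt3 (log2 3.12 ± 0.06) and Gstk1 (log2 2.82 ± 0.06). Gstm1 was higher by log2 2.81 ± 0.04, though its reads are shared with near-identical relatives and its value is uncertain. The myelin galactolipid enzyme Ugt8a was lower (log2 -3.97 ± 0.07), beside oligodendrocyte markers of which 9 of 10 were lower. The retinal dehydrogenases differed by member, with Aldh1a1 at 1157 to 1739.8 CPM in IP (median 1376) and 166 to 267 CPM in INPUT (median 219) (log2 2.75 ± 0.05) and Aldh1a2 lower (log2 -2.70 ± 0.22).

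Lipid enzymes included some of the largest enzyme differences. The desaturases Fads2 (311 to 460.3 CPM in IP (median 379.8) and 36.9 to 50.9 CPM in INPUT (median 39.8)) and Fads1 (1163 to 1600.3 CPM in IP (median 1509.7) and 200.2 to 267 CPM in INPUT (median 218)) and the elongase Elovl2 make long polyunsaturated fatty acids and were all higher (log2 3.20 ± 0.05, log2 2.67 ± 0.04 and log2 2.77 ± 0.06). Pla2g7 (log2 3.21 ± 0.05), which cleaves platelet-activating factor, and the lipid phosphatase Plpp3 (log2 2.87 ± 0.04) were higher too. Lpcat2 (log2 -3.50 ± 0.16), Pld4 (log2 -3.44 ± 0.18) and Plcb2 (log2 -2.56 ± 0.15), lipid enzymes of myeloid cells, and Elovl7 (log2 -2.17 ± 0.06) were lower. Kinases of calcium and lipid signals were lower in 20 of 50, such as Pik3cg (log2 -2.94 ± 0.14) and Camk4 (log2 -2.06 ± 0.05). The 2 called higher were Camk2g (log2 1.38 ± 0.04) and Pik3r1 (log2 1.02 ± 0.04), the latter not by glmTreat or without TMM factors. In the cyclic nucleotide list the phosphodiesterases Pde3b (log2 -2.81 ± 0.11) and Pde1a (log2 -1.88 ± 0.05) and the cyclase Adcy1 (log2 -2.34 ± 0.05) were lower and the cyclases Adcy8 (log2 1.75 ± 0.05) and Adcy2 (log2 1.30 ± 0.05) higher. Extracellular proteases leaned downwards (7 higher and 28 lower of 55). Those named were Ctss of microglia (log2 -4.04 ± 0.06) and the matrix metalloprotease Mmp14 (log2 2.56 ± 0.07). Glycosylation enzymes were higher in 13 and lower in 28 of 87.

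Secreted factors had abundant members on the higher side. Sparc and its relative Sparcl1 (hevin), glycoproteins that astrocytes release and that bear on synapse formation, ranged from 8329 to 11756 CPM in IP (median 9207) and 843 to 1348 CPM in INPUT (median 953) and from 5427 to 8538 CPM in IP (median 6818) and 725 to 992 CPM in INPUT (median 792). Their fractions did not overlap (log2 3.26 ± 0.04 and log2 3.03 ± 0.04). The proteoglycan Bcan (brevican, log2 3.13 ± 0.05) and the syndecan Sdc4 (log2 2.86 ± 0.04) were higher. Tenascin R, Tnr (log2 -2.30 ± 0.04), versican, Vcan (log2 -2.27 ± 0.07), and Hapln2 (log2 -3.40 ± 0.14), matrix genes of the oligodendrocyte lineage, were lower.

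Protease inhibitors were higher in 20 of 38, with 9 lower. Timp4, an inhibitor of metalloproteases, was at 153 to 198 CPM in IP (median 171) and 15.6 to 22.2 CPM in INPUT (median 17.9) (log2 3.22 ± 0.05). Serpine2, an inhibitor of thrombin, was at 799.8 to 1209 CPM in IP (median 1044) and 102 to 136 CPM in INPUT (median 119) (log2 3.16 ± 0.04), and the cathepsin inhibitor Cst3 at 3189 to 4430.0 CPM in IP (median 3514) and 499.8 to 686 CPM in INPUT (median 529) (log2 2.74 ± 0.05). All libraries of IP exceeded those of INPUT for the 3 genes. Cst7 of activated microglia (log2 -4.14 ± 0.27), Serpind1 (log2 -3.67 ± 0.18) and the neuronal Serpini1 (log2 -1.65 ± 0.05) were lower. Complement genes split between the C1q chains of microglia, C1qa (log2 -3.67 ± 0.11), C1qb (log2 -4.11 ± 0.06) and C1qc (log2 -3.62 ± 0.08), and the serine proteases C1ra (log2 2.18 ± 0.16) and C1s1 (log2 2.03 ± 0.16), the inhibitor Serping1 (log2 2.50 ± 0.06) and clusterin, Clu (log2 2.88 ± 0.04), which were higher.

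Growth factors and morphogens were about evenly divided. Midkine, Mdk, a heparin-binding growth factor, ranged from 75.6 to 115 CPM in IP (median 91.3) and 7.64 to 11.3 CPM in INPUT (median 8.398), with no overlap (log2 3.32 ± 0.07). Fgf1 (log2 1.97 ± 0.04), Fgf2 (log2 2.00 ± 0.04) and placental growth factor Pgf (log2 2.14 ± 0.09) were higher, while neuregulins Nrg1, Nrg3 and Nrg4 (-1.53, -1.64 and -1.69) and Fgf10 (log2 -1.67 ± 0.10) were lower. Of the Wnt genes, the ligands Wnt7a (log2 2.32 ± 0.07) and Wnt7b (log2 2.68 ± 0.06), which act on brain endothelium, and the antagonist Sfrp5 (26.7 to 51.9 CPM in IP (median 38.3) and 2.86 to 6.16 CPM in INPUT (median 3.58), log2 3.25 ± 0.07) were higher, and Wnt4 (log2 -1.58 ± 0.14) was lower. Among insulin-like growth factor genes, Igf1 was lower at 2.35 to 3.699 CPM in IP (median 3.14) and 15.8 to 35.1 CPM in INPUT (median 21.03) (log2 -2.85 ± 0.09) and the binding protein Igfbp2 (log2 3.03 ± 0.09) and the protease Htra1 (log2 2.95 ± 0.07) were higher. Bmp7 (log2 1.67 ± 0.09) and Bmp1 (log2 1.85 ± 0.08) were higher and Bmp4 (log2 -3.02 ± 0.18) lower.

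Cytokines and chemokines were divided (14 higher and 16 lower of 40). Ccl12 (log2 -4.72 ± 0.16) and Il1a (log2 -4.20 ± 0.23), made by myeloid cells, were lower, whereas Cxcl14 (log2 2.94 ± 0.05), Lif (log2 2.51 ± 0.11) and the interferon-induced Cxcl10 (222 to 479 CPM in IP (median 332) and 42.05 to 100.4 CPM in INPUT (median 65.1), log2 2.33 ± 0.04) and Cxcl11 (log2 2.28 ± 0.10) were higher. Angiotensinogen, Agt, the precursor that astrocytes supply to the brain's angiotensin system, was higher by log2 3.29 ± 0.05. Secretory granule genes were lower in 11 of 16, among them somatostatin, Sst (8.66 to 15.5 CPM in IP (median 13.6) and 73.4 to 121 CPM in INPUT (median 84.3), log2 -2.77 ± 0.06), and the prohormone convertases Pcsk1 (log2 -1.70 ± 0.08) and Pcsk2 (log2 -1.71 ± 0.06). Carboxypeptidase E, Cpe, and secretogranin III, Scg3, went the other way, Cpe at 4596 to 7262 CPM in IP (median 6555) and 805 to 1178 CPM in INPUT (median 962) (log2 2.71 ± 0.04) and Scg3 at 473 to 657 CPM in IP (median 595) and 104 to 131 CPM in INPUT (median 120.4) (log2 2.29 ± 0.05). Synapse organisers were lower in 22 of 42, led by C1ql3 (log2 -3.59 ± 0.11), while Lgi4 (log2 2.97 ± 0.05), Slitrk2 (log2 1.44 ± 0.05), Flrt1 (log2 1.33 ± 0.05) and Megf10 (log2 1.30 ± 0.05), a phagocytic receptor of astrocytes, were higher. Collagens and laminins were even (14 each way of 42), with the basement membrane chain Lamb2 (log2 2.58 ± 0.08) higher and Col25a1 (log2 -2.18 ± 0.06) lower. Guidance ligands were lower in 11 and higher in 8 of 35, from Sema3d (log2 -2.76 ± 0.10) to Sema4b (log2 1.94 ± 0.06).

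**Figure D4:**
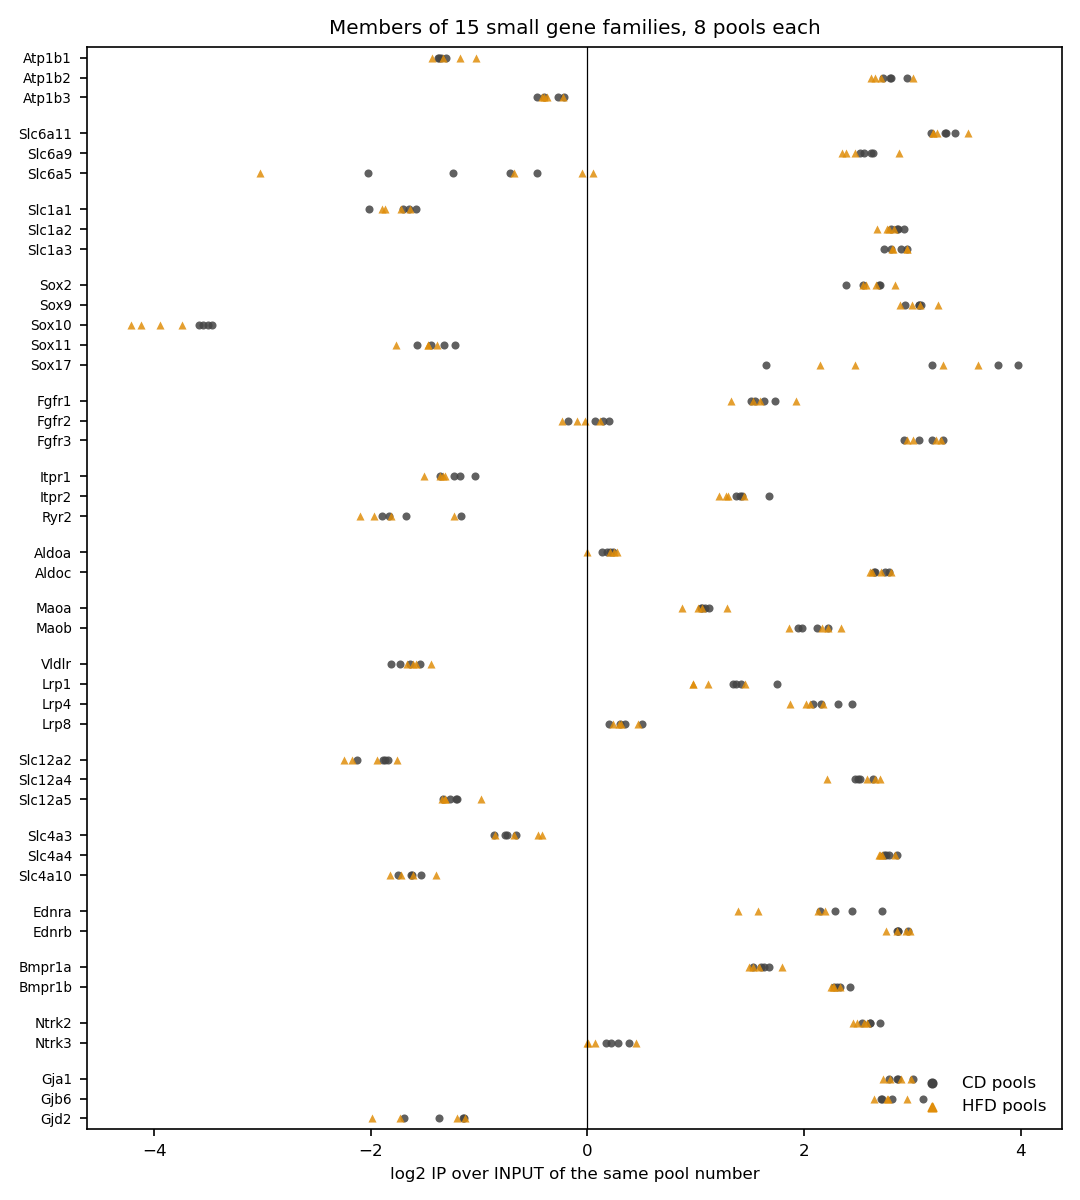
Rows are named members of 15 small gene families, set apart by gaps, and each point is the log2 of IP over INPUT CPM for 1 replicate number (circles CD, triangles HFD). Families such as the sodium pump beta subunits, the glutamate carriers and the connexins have members on both sides of 0 in all 8 pools, while Fgfr2, Aldoa and Ntrk3, whose signs turn without TMM factors, lie near 0. The families were chosen with earlier results known. Over all genes tested, the 8 IP libraries lay wholly above INPUT for 30.9% and wholly below for 30.9%, so such members are common.

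Levels per length, in transcripts per 1000000 (TPM) computed from the counts and the exon length of each gene, place these genes in order within IP. TMM factors were not applied to TPM, so IP set against INPUT in TPM differs from the fold changes given above. The highest secreted factor was Cst3 at 10197 ± 1045 TPM in IP against 1849 ± 192 in INPUT (SD, n = 8 each, as for the values that follow). Sparc (8930.3 ± 1049 in IP), Cpe (8494 ± 1203) and Sparcl1 (8142 ± 1298) came next and were within 1 SD of a neighbour. Aldoc, which is in none of the enzyme lists, was at 9918 ± 740.5 TPM against 1859 ± 138. Within those lists Gstm1 had the highest value, with shared reads as said, and Glul was at 6345 ± 647 TPM against 1472 ± 139, and among carriers Slc1a2 at 5006 ± 649.5 against 863 ± 96.7, followed by Slc6a11 (2897 ± 344 against 359.6 ± 40.5) and Atp1b2 (2796 ± 468 against 489 ± 49.9). The channel with the highest level was Kcnj10 (2067 ± 232 against 374 ± 34.4), then Ttyh1 (1256 ± 167 against 198 ± 22.8). Among receptors Gpr37l1 (846 ± 82.2 against 102 ± 11.8) and Ntrk2 (696 ± 81.2 against 142 ± 13.01) led. Transcription factors were lower in level, with Epas1 at 852 ± 56.2 against 218 ± 17.8 and Sox9 at 519.7 ± 25.5 against 76.8 ± 7.19. A high level did not always go with a 2-fold difference: Slc25a4 stood at 1480.2 ± 131 in IP and 1342 ± 77.6 in INPUT.

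Over all genes, the largest differences upwards also included genes outside these classes. Nrarp, a feedback inhibitor of Notch signalling that Notch itself induces, ranged from 159 to 182 CPM in the 8 IP libraries (median 165) and from 4.67 to 7.68 CPM in the 8 INPUT libraries (median 6.29), with log2 4.76 ± 0.07 (adjusted p = 3.0e-24). Its lowest IP library lay far above its highest INPUT library. Ttr (log2 4.25 ± 0.18), Apoc1 (log2 3.54 ± 0.06), Grifin (log2 3.49 ± 0.16) and Rnase1 (log2 3.37 ± 0.08) were among them. The histone gene Hist2h2aa1 had the largest value of the genes named (log2 4.87 ± 0.61), but it belongs to near-identical copies between which reads cannot be assigned with certainty. Downwards, 3 of the 15 genes of largest difference were long noncoding RNAs. Malat1 ranged from 107 to 215 CPM in IP (median 136) and 7307 to 9972 CPM in INPUT (median 8663) (log2 -5.93 ± 0.17), and Meg3 (log2 -4.75 ± 0.27) and Mir124a-1hg (log2 -5.92 ± 0.13) were lower too. Lrrc17 had the lowest value of the genes named (log2 -7.69 ± 0.11). The neuropeptide precursor Pmch of the lateral hypothalamus (log2 -4.55 ± 0.08), the oligodendrocyte gene Ermn (log2 -4.61 ± 0.05) and the myeloid genes Tlr1 (log2 -4.78 ± 0.26), Clec7a (log2 -4.61 ± 0.15) and Cd86 (log2 -4.61 ± 0.21) were also among the 15.

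Promoters and exon length differed modestly between the groups of genes. RefSeq promoter windows (250 bases before and 50 after the start, GRCm38.p6) were available for 11978 of the 16542 tested genes (15307 windows), among them 1994 genes called higher (2525 windows) and 2264 called lower (2906 windows). Median GC content was 60.3% over all windows, 60.0% for genes higher in IP and 58.3% for genes lower, and CpG dinucleotides numbered 6.33, 5.33 and 4.00 per 100 bases. Genes lower in IP thus had the most CpG-poor windows. Short words were counted on both strands, and a match is no binding site. The NFI word TTGGCA was in 11.4% of all windows, 13.2% of those of genes higher and 12.1% of those of genes lower. The SOX word ACAAAG was in 14.1, 16.5 and 16.3%, the RBPJ word CGTGGGAA in 1.03, 1.31 and 0.826%, and the TATA word TATAAAA in 2.60, 3.09 and 3.27%. The ETS word CCGGAAGT was rarer in both called groups (6.90% of all, 4.00% and 1.82%), as was the cyclic AMP word TGACGTCA (2.83, 1.66 and 2.27%). Protein-coding genes had a median exon length of 4498 bases over all tested, 3873 for those higher and 4802 for those lower. No test was made of these shares.

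Most calls were shared by both diets, whose pools have no library in common. Fitted in the 4 CD pools and in the 4 HFD pools apart, 2550 genes were called higher in both, 92.1% of the 2770 in CD and 91.7% of the 2782 in HFD. Lower in both were 2997 genes, 91.5% of 3274 in CD and 88.8% of 3374 in HFD, and no gene was called in opposite directions. Across 16424 genes, which are not independent replicates, the log2 fold changes had a Pearson r of 0.966 and a Spearman rho of 0.976. The median absolute difference was 0.108, and 91.8% of genes lay within 0.5 of each other. The difference between diets was tested directly as an interaction. It passed for 1 gene (0.00605%), the zinc finger gene Zfp969 (log2 -6.73 ± 0.99, adjusted p = 0.018), with levels under 4 CPM and a CD pool 4 IP library at 0. At an unadjusted p under 0.05 there were 1019 genes. The next smallest p-values belonged to Arrdc3, S100a4, Upp1 and Gm3005, each at an adjusted p of 0.094. Upp1, uridine phosphorylase, was higher in IP by 2.68 in CD and by 3.70 in HFD pools, and the calcium-binding S100a4 by 0.40 and 1.42. The count that passed was 0 without CD pool 1, without CD pool 2, without HFD pool 1 or without the block, and 4 without CD pool 3 or HFD pool 2.

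**Figure D5:**
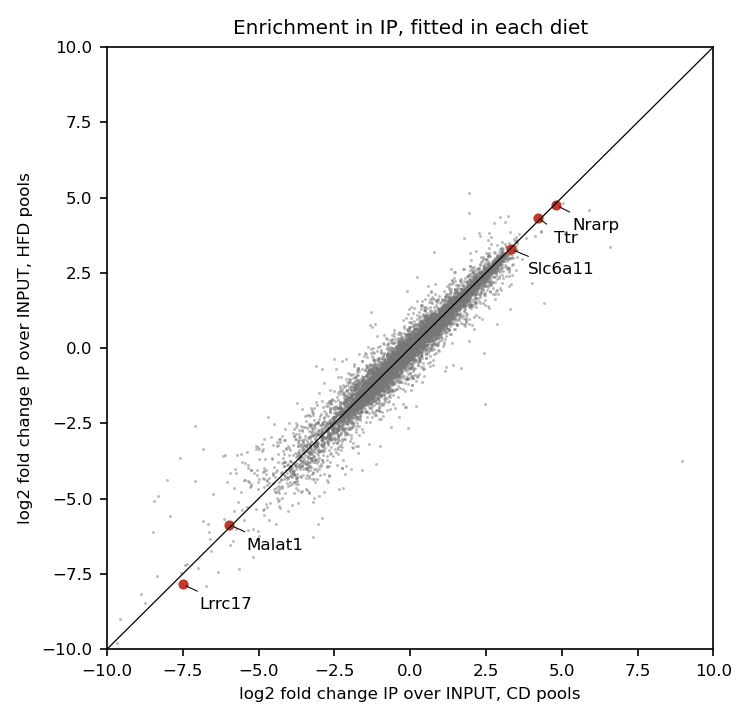
Each of the 16420 points is a gene, with the log2 fold change of IP over INPUT in the 4 CD pools on the x axis and in the 4 HFD pools on the y axis, and the line marks equal values (4 genes lie beyond the axis limit of 10). Points follow the line (Pearson r of 0.966), with Nrarp and Ttr at the upper end and Malat1 and Lrrc17 at the lower end.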

How the data were processed

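The authors deposited 1 table of estimated counts per Ensembl gene for the 16 libraries, not normalized, with 17.3% of values not whole. GRCm38 is the build named in the submitters' processing notes. Both the counting program and its gene annotation are not given in the sources used here. Counts were rounded. Of 45706 rows, 357 nuclear ribosomal RNA, 37 mitochondrially encoded and 3527 other structural RNA rows were left out. No column was left out. Whether counting used strand is not stated, so overlapping and antisense genes cannot be told apart.

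The 41785 rows kept were scaled with TMM factors, filtered (filterByExpr) and fitted with edgeR 4.0.16 in R 4.3.3 (quasi-likelihood, robust, 2-sided, Benjamini-Hochberg over 16542 genes) with pool as the block; an interaction tested the diets. On simulated counts of the IP and INPUT comparison the fit recovered 50, 44, 48 and 49 of 50 genes changed by log2 -2, -1, 1 and 2, with 10 false calls. Recovered genes and false calls were counted at adjusted p at most 0.05 without the 2-fold threshold. The simulated counts held no differences between pools and few changed genes, so the recovery does not describe the calls made here. Gene names, positions and exon lengths came from GENCODE, and 45143 rows had a symbol. Libraries of a group differed beyond sampling noise (lowest chi-square per degree of freedom 5.74).

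The 63 function lists, 17 family sets and 12 marker lists were chosen with earlier results of these data known. Genes named come from a rule: the sets, up to 15 genes per direction over all genes and up to 4 per list with the largest called difference (average log2 CPM at least 1, no overlap, no placeholder symbol), exceptions to a list with 80% of calls one way, 5 genes of smallest p between diets and 5 per class of highest level. It selects 484 genes, of which the text names part, beside cell type markers; some are not reported here. Alternatives were DESeq2 1.42.0, no TMM factors, all rows kept, no filter, no block, glmTreat, each diet alone and each pool left out.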

Additional observations from a re-analysis of the deposited data

Results flagged for a closer look

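A library stood apart from the other 7 of its fraction in 27 of the 686 groups of 8 values checked (3.94%), by the gap to its nearest neighbour over the range (Dixon's criterion, which chance meets in about 1 in 20 groups, a larger share). Of these, 5 were low values in the IP library of CD pool 3, namely Sox17 (2.48 CPM), Sox18 (11.5 CPM), Eng (10.4 CPM), Foxf2 (5.19 CPM) and Nrg1 (5.54 CPM). The first 4 are genes of vessels, and the sum of the endothelial markers in that library was 285 CPM, against 280.4 to 405 CPM in the other IP libraries. In the IP library of CD pool 4 Itpr2 (95.1 CPM) and Gli1 (22.99 CPM) were high and Zfp969 was at 0, and in its INPUT library Itpr2 (29.7 CPM), Atp1b2 (579 CPM) and Kcnk6 (7.89 CPM) were high. In the INPUT library of CD pool 3 Cst3 (686 CPM), Fgf1 (304 CPM) and Wnt7b (9.85 CPM) were high.

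In HFD pools, the INPUT library of pool 1 was high for Flrt1 (34.0 CPM), Grm5 (82.8 CPM), Robo4 (1.02 CPM) and Slco1a4 (4.71 CPM), that of pool 2 for Slc6a5 (3.06 CPM), and that of pool 4 was low for Ryr3 (20.9 CPM). The IP library of pool 3 was low for Htra1 (43.5 CPM) and Slc13a5 (23.7 CPM), and that of pool 4 for Sst (8.66 CPM). That of pool 1 was high for Col3a1 (1.43 CPM) and Kcnj8 (0.413 CPM). The summed precursor markers were low in INPUT of pool 3 (150.8 CPM, against 162.9 to 173.5 CPM in the others). The summed tanycyte and ependymal markers were high in IP of pool 4 (99.3 CPM, against 53.9 to 66.6 CPM).

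The difference of Zfp969 between IP and INPUT differed between diets (log2 -6.73, HFD less CD, edgeR interaction). Nuclear ribosomal RNA, left out before scaling, took 9.15% of counts in IP on average and 4.06% in INPUT.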

How the results depend on the processing

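The counts of genes higher and lower in IP stayed within 1.5 times of the reported ones (2733 and 3406) in every alternative but 1: with no filter on low counts 5427 genes were lower, among 29559 tested. With each pool left out in turn they ran from 2724 to 2786 and from 3372 to 3443. All counts of the 6 classes stayed within 1.5 times in the 192 combinations tried. Counts of single lists moved by more in 35 of 2016 combinations for function lists, mostly without TMM factors, with no filter or with glmTreat, and in 13 of 384 for marker lists. Among them, with no filter, lower counts were 14 for cytochromes P450 (reported 6), 22 for collagens and laminins (14) and 26 for cytokines and chemokines (16). Without TMM factors 9 collagens and laminins were higher (14), 5 guidance ligands higher (8) and 19 lower (11), and 7 SLC25 carriers lower (4). With a single pool left out only marker lists moved: the 1 fibroblast gene called higher was lost without CD pool 2, and 3 or 2 choroid plexus genes were lower (reported 1) without CD pool 4 or HFD pool 4. The count of genes whose difference differed between diets was less stable: 5 with DESeq2, 120 with no filter and 0 with no replicate block, and 0 to 4 with each pool left out. The counts at an unadjusted p under 0.05 were 683 without the block and 762 with DESeq2, and 691 to 1177 with a pool left out.

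Of the genes named, Fgfr2 (0.00) turned to -0.012 with DESeq2, -0.27 without TMM factors, -0.00036 with no replicate block and -0.054 in HFD pools alone, and ran from -0.020 to 0.033 with each pool left out; Aldoa turned to -0.091 and Ntrk3 to -0.078 without TMM factors. Called genes that fell under 2-fold were, without TMM factors, Gabbr2 (0.97), Gria1 (0.86), Maoa (0.79) and Pik3r1 (0.74), in CD pools alone, Asns (-0.96), and Slc6a5 without CD pool 3 (-0.99) or HFD pool 2 (-0.79). Asns, Kcne2, Maoa, Mthfd1l, Mthfd2, Pik3r1, Slc6a5 and Zfp969 were not called with glmTreat, and Slc6a5 and Lum were not in HFD pools alone. S100a4 passed 2-fold without CD pool 2, 3 or 4 (1.06, 1.01 and 1.03) and in HFD pools alone (1.42). The causes were not tested.

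The block follows the replicate numbers of the labels. Deviations of IP and INPUT libraries of the same number correlated at -0.048 to 0.258, not above 0.1 in every pair, and 6 of 8 IP libraries correlated best with the INPUT library of their own number, a hint from the data only. With no replicate block 2732 genes were higher and 3381 lower. Low levels limit single genes: at a median under 1 CPM, as for Kcne2 and Slc6a5, libraries of a fraction spread several-fold.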
